A study of Mus musculus with 2 samples.

Results

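Expression was examined for 6 mouse genes that code for core parts of the hemidesmosome and its ligand laminin-332, namely Lama3, Lamb3, Itga6, Itgb4, Col17a1 and Dst. They were taken by name, with earlier results of these data known, and all 6 were among the 19550 genes in the deposited table. Col17a1 is among the genes that the paper lists for the squamous lineage from these cells, so its contrast is not an independent finding. Their levels were compared between squamous and columnar epithelial cells, between regions of the upper gut, between stages, and with every other cell class of the study.

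Hemidesmosomes are the junctions that rivet the basal layer of a stratified epithelium to the basement membrane beneath it. Outside the cell, laminin-332 contains the chains coded by Lama3 and Lamb3. Integrin alpha-6 beta-4, a pair of the Itga6 and Itgb4 products, binds it, and the transmembrane collagen XVII (Col17a1) and the plakins dystonin (Dst) and plectin complete the link to keratin filaments. Squamous epithelium of the esophagus carries such junctions in its basal layer, whereas simple columnar epithelium of the stomach is anchored without typical hemidesmosomes, and the alpha-6 chain also pairs with beta-1 in many cell types.

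The cells came from wild-type C57BL/6 mice at embryonic day 15 (E15), at E19, as pups of day 2 and as adults of 8 weeks. Esophagus, the gastroesophageal squamocolumnar junction (GE-SCJ) and stomach were dissected at each stage, digested with collagenase and tagged with a lipid-linked barcode before they were mixed into 1 single-cell 3′ RNA library. The labels give 6 mice at E15, 2 at E19, 2 as pups and 3 as adults, a number on which the methods differ, and the animals of a stage and region were pooled under a tag, so each combination is 1 sample. Adult stomach was not analysed here, which leaves 11 region and stage samples. With 1 sample a group there was no test: levels are given with intervals for counting error, which leave out all variation between animals, and a difference of at least 2-fold is used as a fixed measure of size.

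The table held 7808 cells with 107865155 unique molecular identifiers (UMIs, one for each captured RNA molecule) in all, between 143 and 1403 cells a sample and a median of 10424.5 UMIs a cell. Cell classes are those the authors deposited. The class labels matched their defining markers: the summed level of 6 squamous markers was 26325 CPM (UMIs of a gene per 1000000 UMIs of the group) in the 730 squamous cells and 127 in the 1540 columnar cells, and that of 6 columnar markers 11341 CPM in columnar and 1331 in squamous cells. Columnar cells were read more deeply, with a median of 25118 UMIs against 11996.5 in squamous cells. Of 478 adult cells, 64 carried at least 1000 CPM of H19, a gene of embryonic tissue, and 35 of these were esophageal squamous cells. Each level is a CPM value, with its exact Poisson 95% interval where one is given. It counts 3′ ends and is not divided by gene length, so levels are compared within a gene only.

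In the GENCODE annotation of the mouse genome GRCm38, Col17a1 lies on the minus strand of chr19:47646344-47692094. Itga6 lies at chr2:71745616-71858416, Itgb4 at chr11:115974709-116008412, Dst at chr1:33908225-34308661 and Lamb3 at chr1:193207699-193343878, all on the plus strand. No position or sequence is given for Lama3. Dst is the member whose count joins the most different RNAs. Its 14 protein-coding transcripts end at 13 positions spread over 171.526 kb, and the table sums them as 1 gene, so the epithelial form and the longer neural and muscle forms are not told apart in any Dst value below.

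The stretches before the start sites are shown for Col17a1, Lamb3 and Dst, the members for which windows were at hand. These genes had similar profiles over the epithelial groups, as did Itgb4 and Lama3 (below). Dst has several starts, the epithelial form being known to use an internal one. The annotated gene begins well upstream of both Dst windows. RefSeq windows (build GRCm38.p6) were at hand for 3 of the 6 members. Bases inside annotated exons were left out, and capitals mark the CACCC box on either strand (CACCC, or GGGTG on the other strand).
Col17a1, chr19:47692095-47692292, minus strand: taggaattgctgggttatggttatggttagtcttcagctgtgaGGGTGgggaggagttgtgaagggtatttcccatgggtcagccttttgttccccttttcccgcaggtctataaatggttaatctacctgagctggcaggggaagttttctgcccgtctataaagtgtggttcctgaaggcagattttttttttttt
Lamb3, chr1:193301744-193301992, plus strand: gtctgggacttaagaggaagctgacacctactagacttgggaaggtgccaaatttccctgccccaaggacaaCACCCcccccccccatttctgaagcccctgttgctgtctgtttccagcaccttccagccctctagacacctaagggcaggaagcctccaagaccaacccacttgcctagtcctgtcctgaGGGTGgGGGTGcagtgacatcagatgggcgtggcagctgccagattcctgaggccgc
Dst, upstream RefSeq start, chr1:34011345-34011594, plus strand: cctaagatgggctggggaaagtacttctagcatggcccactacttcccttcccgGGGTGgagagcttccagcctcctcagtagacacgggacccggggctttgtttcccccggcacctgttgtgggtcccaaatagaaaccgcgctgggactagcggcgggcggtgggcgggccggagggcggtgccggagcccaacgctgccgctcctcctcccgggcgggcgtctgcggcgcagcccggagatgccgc
Dst, downstream RefSeq start, chr1:34160010-34160259, plus strand: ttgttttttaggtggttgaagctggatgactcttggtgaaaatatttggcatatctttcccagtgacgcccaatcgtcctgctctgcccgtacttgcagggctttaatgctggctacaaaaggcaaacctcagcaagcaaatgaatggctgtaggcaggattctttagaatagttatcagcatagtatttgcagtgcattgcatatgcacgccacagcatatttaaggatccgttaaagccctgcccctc

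The 250 bases before each start were searched on both strands for the AP-1 motif (TGANTCA), the CACCC box and the p53-family half-site, given here by name. None of the 5 windows of the members held the AP-1 motif or the half-site, which were present in 6.75% and 7.13% of all 32851 windows of that length. The CACCC box, present in 52.0% of all windows, had 2 matches for Col17a1, of which 1 lies in the bases shown, 3 in each of the 2 Lamb3 windows, of which 1 window is shown, 1 before the upstream Dst start and none before the downstream one. No matches of different motifs overlapped. These counts describe letters in a window and call no site.

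Squamous and columnar cells of the GE-SCJ, dissected together and carrying the same tag, give the closest comparison of the epithelia that meet there. Col17a1, Dst and Lama3 were at least 2-fold higher in squamous cells at E15, E19 and in pups. The receptor chains parted, Itgb4 being higher in squamous cells at all 3 stages and Itga6 only in pups. Of the 6 members, 4 were at least 2-fold higher in squamous cells at E15, 4 at E19 and 5 in pups, where 3.58%, 6.51% and 7.85% of all genes with at least 100 UMIs were. Of the members, 2, 4 and 5 reached 100 UMIs themselves, and 1, 2 and 4 of these were at least 2-fold higher. No member was at least 2-fold lower at these stages, against 6.09%, 11.7% and 16.3% of genes.

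Lama3 codes for the alpha-3 chain that gives laminin-332 its integrin-binding end. It stood at 26.5 CPM (17.0 to 39.5) in the 47 squamous cells of E15, at 29.7 (17.0 to 48.2) in the 34 of E19 and at 32.8 (20.6 to 49.7) in the 46 of pups. In columnar cells its level was 1.51 CPM at E15 (2 UMIs in 53 cells), 0.14 at E19 (1 UMI in 274 cells) and 1.47 in pups (12 UMIs in 291 cells). The intervals of both classes stayed apart at every one of these stages. The log2 ratios, computed with 1 UMI added to each sum, were 3.61 (95% interval 1.90 to 5.98), 6.82 (4.75 to 9.98) and 4.44 (3.39 to 5.54).

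Lamb3, the beta-3 chain found in laminin-332, was present in both epithelia. Its squamous levels were 29.9, 42.7 and 98.5 CPM at E15, E19 and in pups, and its columnar levels 15.9, 19.1 and 29.4 CPM. The log2 ratios were 0.90 (0.04 to 1.77), 1.21 (0.52 to 1.84) and 1.76 (1.35 to 2.16). The beta chain thus differed less between the epithelia than the alpha chain, whose interval did not meet that of Lamb3 at any of the 3 stages.

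Itga6 codes for the alpha-6 chain, which pairs with beta-4 in hemidesmosomes and with beta-1 elsewhere. It was at 98.4, 106 and 197 CPM in squamous cells of the GE-SCJ and at 117, 174 and 126 CPM in columnar cells. Squamous cells were thus near columnar cells at E15 (log2 ratio -0.24, -0.63 to 0.14), below them at E19 (-0.69, -1.10 to -0.31) and above them in pups (0.65, 0.38 to 0.91).

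Itgb4, the chain that joins only with alpha-6 and reaches the plakins inside the cell, was at 56.4, 53.8 and 102 CPM in squamous cells and at 17.4, 28.9 and 22.7 CPM in columnar cells. Its log2 ratios were 1.67 (0.94 to 2.43), 0.94 (0.34 to 1.50) and 2.17 (1.75 to 2.58). Columnar cells therefore held Itgb4 at a level well above that of immune cells (3.99 CPM over all stages), while their Col17a1 and Lama3 lay close to those of immune cells.

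Col17a1, the collagen that spans the basal cell membrane, stood far apart at every stage. Squamous cells held 81.8 CPM (64.3 to 103) at E15, 76.1 (54.6 to 103) at E19 and 366 (321 to 415) in pups. Columnar cells held 1.51, 2.51 and 3.42 CPM at the same stages. The log2 ratios were 5.19 (3.59 to 7.50), 4.88 (4.06 to 5.74) and 6.70 (6.14 to 7.31).

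Dst, the plakin that ties the plaque to keratin, was at 279, 184 and 723 CPM in squamous and at 43.8, 43.3 and 57.5 CPM in columnar cells. The log2 ratios were 2.65 (2.24 to 3.08), 2.10 (1.76 to 2.43) and 3.65 (3.47 to 3.84). Columnar Dst was again near the level of immune cells, 55.3 CPM over all stages.

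In adults the GE-SCJ held 87 squamous and 19 columnar cells. Col17a1 was at 113 CPM in the squamous cells and had no UMI in the columnar cells, which with 3 UMIs as the floor makes it at least 18.7-fold higher. Dst was at 129 against 76.6 CPM and Lamb3 at 21.3 against 26.2. Lama3 was at 8.37 CPM against no UMI, where 3 UMIs would be 6.05 CPM in the 19 cells. Itga6 was lower in squamous cells, at 56.7 against 163 CPM (log2 ratio -1.53, -1.98 to -1.08), and Itgb4 was at 37.4 against 42.4 CPM. Over all squamous cells, Col17a1 stayed far apart in adults. The levels of Itgb4, Dst and Lamb3 in the epithelia lay closer together than in pups. Within the 40 basal-keratin-rich squamous cells of adults (defined below), Itga6 was at 158 CPM (123 to 199) and Itgb4 at 101. Dst was at 362 CPM and Lamb3 at 65.7 in these cells.

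**Figure D1:**
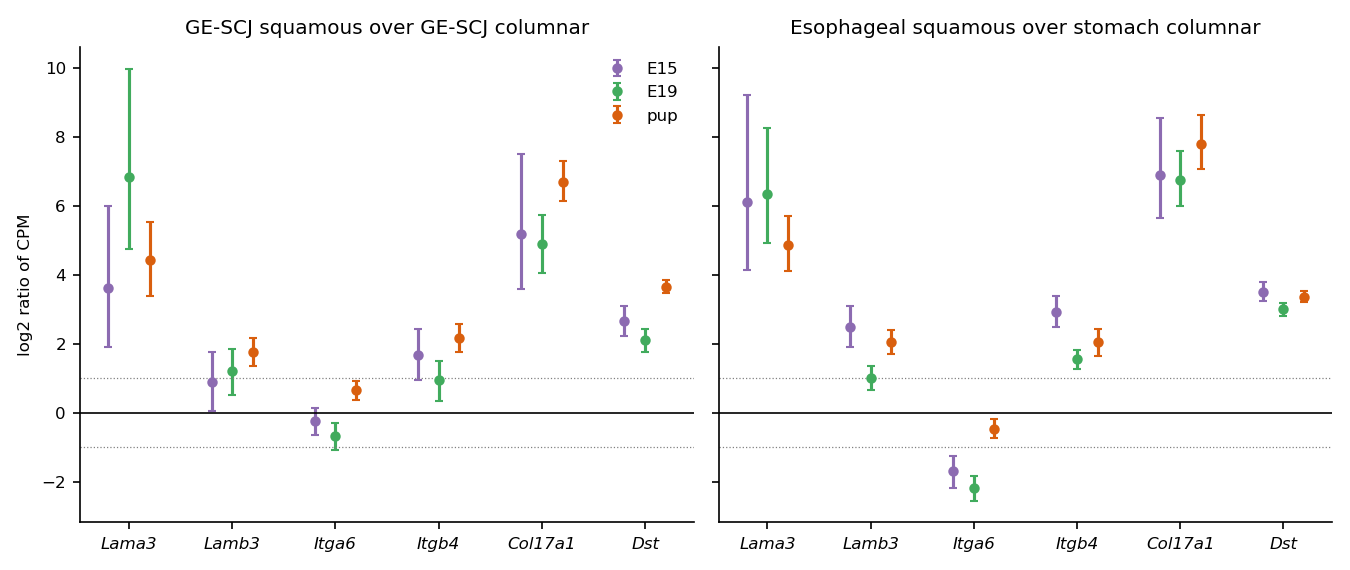
Log2 ratio of CPM of the 6 genes, squamous over columnar cells within the GE-SCJ (left) and esophageal squamous over stomach columnar cells (right), at E15, E19 and in pups; bars are 95% intervals for counting error and dotted lines mark 2-fold. Col17a1 lies between 4.88 and 7.80 and Lama3 between 3.61 and 6.82 throughout, while Itga6 lies between -2.18 and 0.65.

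Away from the junction the contrast was similar, with Itga6 further on the columnar side. In the esophagus, 64, 123 and 85 squamous cells were read at E15, E19 and in pups, and in the stomach 140, 366 and 351 columnar cells. At each stage 5 of the 6 members were at least 2-fold higher in esophageal squamous cells, against 6.36%, 8.2% and 10.3% of genes. At each stage 5 members reached 100 UMIs, and 4 of these were at least 2-fold higher. Itga6, the exception, was at 43.8, 38.6 and 114 CPM in the esophagus and at 145, 178 and 158 CPM in stomach columnar cells. Its log2 ratios were -1.70 (-2.18 to -1.26), -2.18 (-2.56 to -1.83) and -0.46 (-0.75 to -0.18), so it was at least 2-fold lower at E15 and E19, as were 8.09% and 12.1% of genes.

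The other members differed in the opposite direction from Itga6 in that pair of tissues. Col17a1 had log2 ratios of 6.90, 6.74 and 7.80, Lama3 of 6.10, 6.34 and 4.88, and Dst of 3.51, 3.00 and 3.37. For Itgb4 they were 2.93, 1.55 and 2.04. For Lamb3 they were 2.49, 1.01 and 2.06, with an interval of 0.66 to 1.35 at E19, and 0.92 there with classes set from the markers. Without a second squamous label that the authors give (described below), an alternative added after the data had been seen, Itga6 in pups was at 0.30.

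Several members were read in the same squamous cells. To compare cells of different depth, each cell was thinned to 5000 UMIs, leaving 600 squamous, 1488 columnar and 253 immune cells. UMIs of 3 or more of the 6 genes were then found in 42.0% of squamous cells, 2.69% of columnar cells and 0.791% of immune cells, the last taken as a class that should lack these junctions. Other classes thinned in the same way lay above columnar cells, at 9.52% (neural), 6.67% (second stromal label, described below) and 4.67% (endothelial). Smooth muscle cells and fibroblasts lay below, at 0.241% and 0.238%. In the GE-SCJ such cells were 0 of 41 neural cells at E15 and 12 of 63 at E19, against 12 of 45 and 6 of 30 squamous cells. The mean number of members found in squamous, columnar and immune cells was 2.06, 0.93 and 0.672 a cell. Much of the count in columnar and immune cells was Itga6, found in 50.5% and 41.9% of them.

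Taken singly, Col17a1, Itgb4, Lamb3 and Dst were also found in more squamous than columnar cells. Col17a1 was found in 45.5% of thinned squamous cells (41.5 to 49.6, exact binomial), in 0.672% of columnar cells (0.323 to 1.23) and in 1.19% of immune cells (0.245 to 3.43). At their own depth the shares were 61.2%, 4.42% and 2.82%. After thinning, the columnar share was not above the immune one, and the source of these columnar UMIs was not tested. Median depths were 11996.5, 25118 and 8266.5 UMIs. Itgb4 was found in 31.7%, 12.1% and 1.19% of the thinned cells of these classes and Lamb3 in 23.8%, 11.4% and 0.395%, so that columnar cells lay above the immune share for both. Dst was found in 58.5% of squamous, 17.9% of columnar and 22.5% of immune cells. Itga6 lay the other way at own depth. In pups it was found in 56.5% of squamous and 89.1% of columnar cells, the latter being read more deeply.

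**Figure D2:**
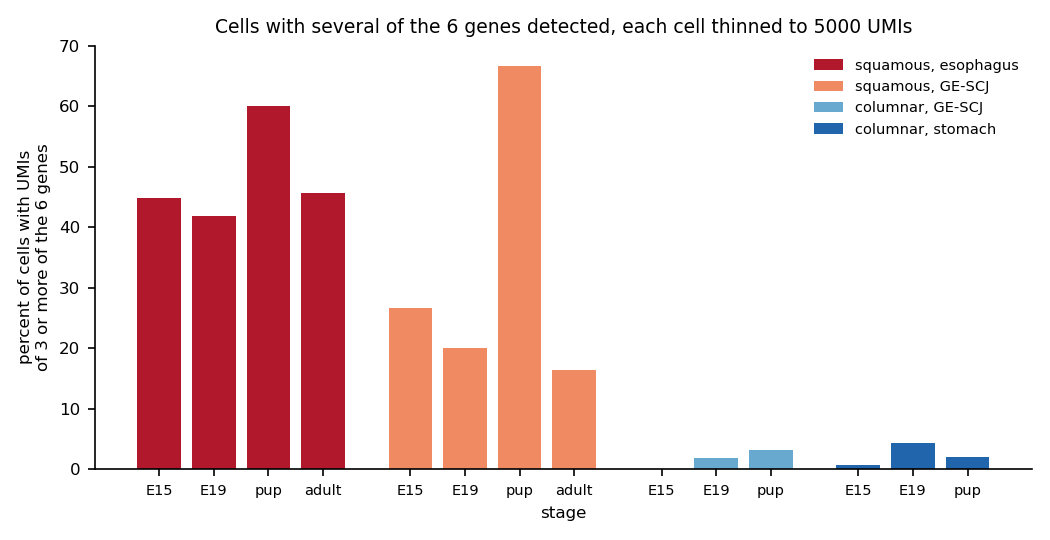
Percent of cells in which UMIs of 3 or more of the 6 genes were found after each cell was thinned to 5000 UMIs. Squamous cells are of the esophagus and GE-SCJ at each stage. Columnar cells are of the GE-SCJ and stomach at E15, E19 and in pups. Squamous groups lie between 16.4% (adult GE-SCJ) and 66.7% (pup GE-SCJ), and columnar groups at or below 4.35%.

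Hemidesmosomes sit on the basal face of basal cells, so squamous cells were split by their keratins, without use of the members. Cells with at least 10 UMIs of Krt5, Krt14, Krt15, Krt4 and Krt13 were called basal-keratin-rich where Krt5, Krt14 and Krt15 made up at least 50% of these UMIs, and suprabasal-keratin-rich otherwise. The split cuts a range and not types: between 2 and 9 cells of each group compared had a share of 0.4 to 0.6. At least 20 cells on both sides were found in the esophagus at E19 (67 and 55), in pups (48 and 35) and in adults (116 and 109), and in the adult GE-SCJ (40 and 45).

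All 6 members were at least 2-fold higher in the basal-keratin-rich cells of the pup esophagus, the adult esophagus and the adult GE-SCJ, where 38.3%, 13.2% and 9.86% of genes were. Of the members, 3, 5 and 2 reached 100 UMIs there, and each of these was at least 2-fold higher. In the pup esophagus 25.7% of genes, and no member, were at least 2-fold lower. At E19 in the esophagus 5 of 6 were at least 2-fold higher, against 14.5% of genes, as were all 3 that reached 100 UMIs. Itga6 was the exception there, at 46.3 CPM against 30.1 (log2 ratio 0.61, -0.13 to 1.37).

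In the adult esophagus Col17a1 was at 465 CPM in basal-keratin-rich and 36.4 in suprabasal-keratin-rich cells, Itgb4 at 226 and 19.8, and Lamb3 at 114 and 8.29. Dst was at 593 and 88.0 CPM, Itga6 at 201 and 36.4, and Lama3 at 22.4 and 3.22. The log2 ratios ran from 2.45 for Itga6 to 3.72 for Lamb3. In the adult GE-SCJ they ran from 3.11 for Itgb4 to 4.63 for Lamb3, and Col17a1 was at 346 against 14.7 CPM. The basal-keratin-rich cells were the shallower ones, with medians of 7819 against 15171 UMIs in the adult esophagus and 9232 against 22959 in the adult GE-SCJ.

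**Figure D3:**
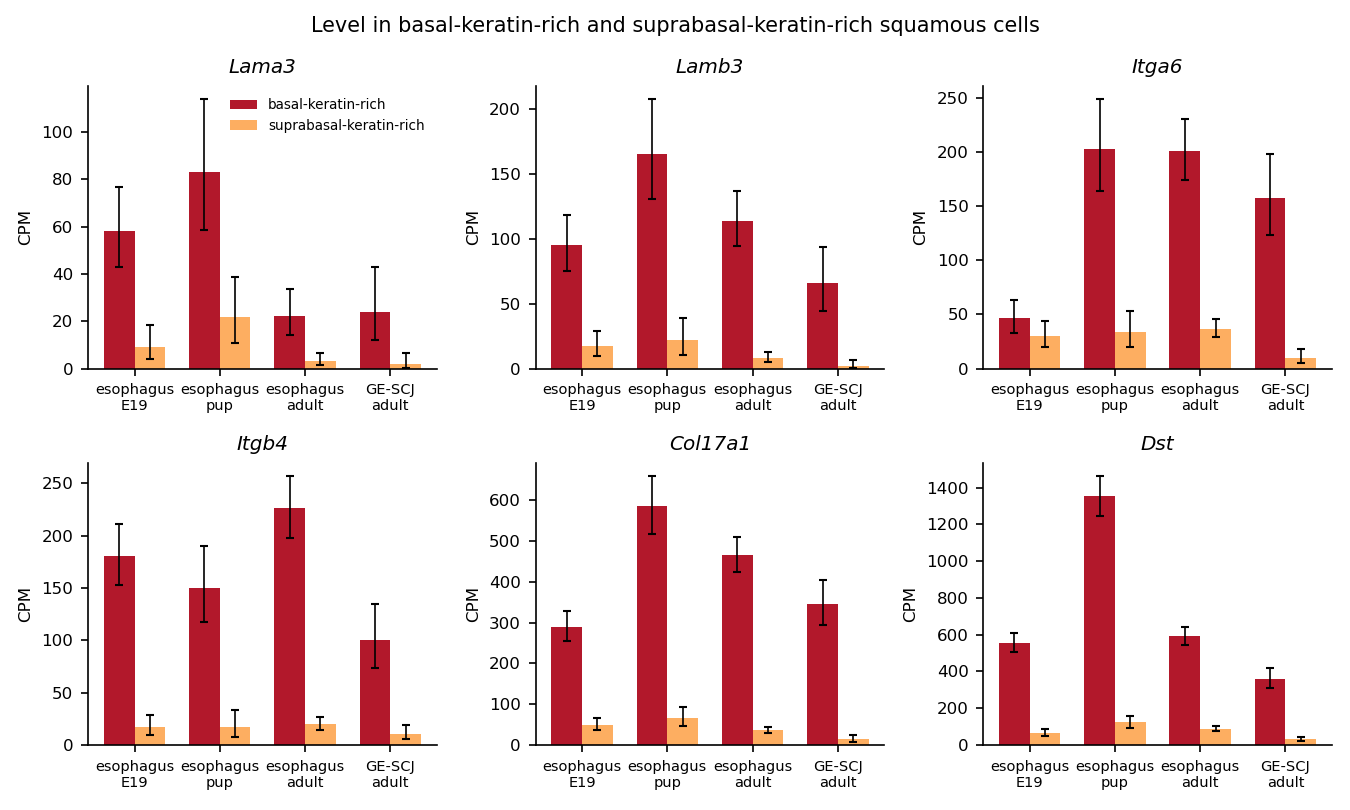
CPM of the 6 genes in basal-keratin-rich and suprabasal-keratin-rich squamous cells of the esophagus at E19, in pups and in adults, and of the adult GE-SCJ; error bars are exact Poisson 95% intervals. Each gene is higher in the basal-keratin-rich cells of every group, and only for Itga6 at E19 do the intervals overlap (46.3 and 30.1 CPM).

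The authors' labels hold a second squamous class, 29 of the 85 squamous cells of the pup esophagus. Col17a1, Itgb4, Lama3 and Lamb3 had no UMI in these 29 cells, where 3 UMIs would be 7.47 CPM and the interval reaches 9.18 CPM. Itga6 had 1 UMI and Dst 10. In the 56 cells of the first label the levels were 529 CPM for Col17a1, 193 for Itga6, 138 for Itgb4, 1202 for Dst, 85.8 for Lama3 and 156 for Lamb3. The second class also lacked Trp63, a regulator of stratified epithelium, and held Krt13, a keratin of suprabasal cells, at 6915 CPM against 1456. The values of the esophagus and GE-SCJ given above and below join both labels. The other 11 of the 40 second-label cells include 3 of the esophagus and 4 of the GE-SCJ at E19 and 2 of the pup GE-SCJ. Without the second label, squamous over columnar cells of the GE-SCJ at E19, Itgb4 was at 1.14, past 2-fold.

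Over stages, the squamous levels of 5 members were highest in pups in both regions, and that of Itgb4 in the GE-SCJ alone. Col17a1 was at 154, 168, 310.5 and 174 CPM in the esophagus at E15, E19, in pups and in adults, and at 81.8, 76.1, 366 and 113 CPM in the GE-SCJ. Dst was at 412, 310.1, 716 and 253 CPM in the esophagus and at 279, 184, 723 and 129 in the GE-SCJ. For both genes the interval of the pup sample lay above those of all other stages. The pup interval overlapped that of another stage for Lama3 in both regions, and for Itga6 and Lamb3 in the esophagus.

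The laminin chain Lamb3 was at 63.1, 55.6, 91.5 and 43.0 CPM in the esophagus and at 29.9, 42.7, 98.5 and 21.3 in the GE-SCJ. Itgb4 was at 121, 97.7, 81.2 and 86.6 CPM in the esophagus, with E15 highest, and at 56.4, 53.8, 102 and 37.4 in the GE-SCJ.

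Over all squamous cells little moved before birth. No member differed 2-fold between E15 and E19, where 4.21% and 3.4% of genes were at least 2-fold higher and lower at E19 in the esophagus and 6.54% and 6.59% in the GE-SCJ. Only Dst had intervals clear of 0, at log2 ratios of -0.41 (-0.60 to -0.22) and -0.59 (-0.94 to -0.25). Within basal-keratin-rich cells of the esophagus Dst was at 0.13 (-0.07 to 0.32) and Col17a1 at 0.58 (0.28 to 0.89). The intervals of the other members held 0 there. The GE-SCJ had only 8 such cells at E19.

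From E19 to pups, Itga6 (log2 ratio 1.55, 1.11 to 2.01) and Dst (1.21, 1.04 to 1.37) were at least 2-fold higher in the esophagus, as were 8.57% of genes. In the GE-SCJ Col17a1 (2.24, 1.76 to 2.74), Dst (1.96, 1.65 to 2.29) and Lamb3 (1.17, 0.48 to 1.90) were, against 4.14% of genes. None was 2-fold lower, as were 19.6% and 9.31% of genes. Within basal-keratin-rich cells of the esophagus Itga6 was at 2.11, Dst at 1.28 and Col17a1 at 1.01. In the GE-SCJ such cells were 8 of 32 cells split by keratins at E19 and 32 of 43 in pups. The part of this shift in the GE-SCJ ratios was not tested. Without the second squamous label 5 of 6 were at least 2-fold higher in the pup esophagus, all but Itgb4 (0.47).

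From pup to adult most levels over all squamous cells were lower. In the GE-SCJ all 6 members were at least 2-fold lower in adults, against 6.52% of genes, as were all 4 that reached 100 UMIs. Within basal-keratin-rich cells 2 of 6 were (below). Over all squamous cells of the GE-SCJ the log2 ratios ran from -1.44 for Itgb4 to -2.48 for Dst. In the esophagus 3 of 6 were at least 2-fold lower (Dst -1.50, Lama3 -2.41, Lamb3 -1.10), against 10.3% of genes. Itgb4 differed there by 0.08 (-0.28 to 0.46) and Itga6 by -0.33 (-0.64 to 0.002). No member was 2-fold higher in the adult esophagus, as were 22% of genes. Without the second squamous label 5 of 6 were at least 2-fold lower in the adult esophagus, with Col17a1 at -1.60 and Itga6 at -1.08 as well, and Itgb4 was at -0.69.

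Lama3 over all squamous cells had adult levels whose interval lay below those of all earlier stages in both regions, from 30 and 13 UMIs. Values within basal-keratin-rich cells are given below. It was at 34.6, 33.3, 50.4 and 9.35 CPM in the esophagus and at 26.5, 29.7, 32.8 and 8.37 in the GE-SCJ. Adult over E15, its log2 ratio was -1.88 (-2.63 to -1.14) in the esophagus and -1.62 (-2.67 to -0.62) in the GE-SCJ.

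Itga6 had a different course in each region. In esophageal squamous cells it was at 43.8, 38.6, 114 and 91.6 CPM, low in both embryonic samples and high in both samples after birth. In the GE-SCJ it was at 98.4, 106, 197 and 56.7 CPM, with the adult sample lowest. Adult over E15, the log2 ratio was 1.04 (0.58 to 1.53) in the esophagus and -0.80 (-1.24 to -0.36) in the GE-SCJ. Without adult cells high in H19 the first was 0.89. In the esophagus Itga6 was the 1 member of 6 at least 2-fold higher in adults than at E15 (11.3% of genes were) and Lama3 the 1 at least 2-fold lower (18% of genes). In the GE-SCJ Dst (-1.11) and Lama3 were at least 2-fold lower, as were 17.8% of genes, and no member was at least 2-fold higher, as were 11.8%.

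The make-up of the squamous cells moved with stage. Basal-keratin-rich cells were 52 of 63 classed cells in the esophagus at E15, 67 of 122 at E19, 48 of 83 in pups and 116 of 225 in adults, and 35 of 45, 8 of 32, 32 of 43 and 40 of 85 in the GE-SCJ. Within these cells alone, a comparison added after the data had been seen, the adult over E15 ratios lay higher for every member. In the esophagus Col17a1 was then at 1.26 (0.99 to 1.54), Itga6 at 2.25 (1.71 to 2.82), Itgb4 at 0.62 and Lamb3 at 0.55, while Lama3 stayed lower in adults (-0.90, -1.72 to -0.11). In the GE-SCJ Col17a1 was at 1.72 (1.30 to 2.16), Itga6 at 0.54 (0.04 to 1.03), Dst at 0.07 (-0.23 to 0.37) and Lama3 at -0.13 (-1.32 to 1.00). So the lower adult Dst and Itga6 of the GE-SCJ were not seen within basal-keratin-rich cells. The lower adult Lama3 was seen there in the esophagus, while in the GE-SCJ its interval held 0. The keratins that set the split differed with stage themselves. In these cells of the GE-SCJ Krt5 was at 629 CPM at E15 and 4343 in adults, Krt14 at 6.40 and 4562, and Krt15 at 2566 and 1830. Basal-keratin-rich cells of E15 and of adults therefore need not be alike. Adult over pup, 2 of 6 members were at least 2-fold lower within these cells in each region, where 6 and 3 were over all squamous cells of the GE-SCJ and esophagus. In the GE-SCJ these were Dst (-1.58, -1.85 to -1.32) and Lamb3 (-1.14), while Col17a1 was at -0.66, Itga6 at -0.77, Itgb4 at -0.39 and Lama3 at -0.93. In the esophagus they were Dst (-1.19, -1.35 to -1.03) and Lama3 (-1.86), with Lamb3 at -0.55 and Col17a1 at -0.33. Itga6 was at -0.02 (-0.38 to 0.34) and Itgb4 at 0.57 (0.18 to 0.98) there.

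**Figure D4:**
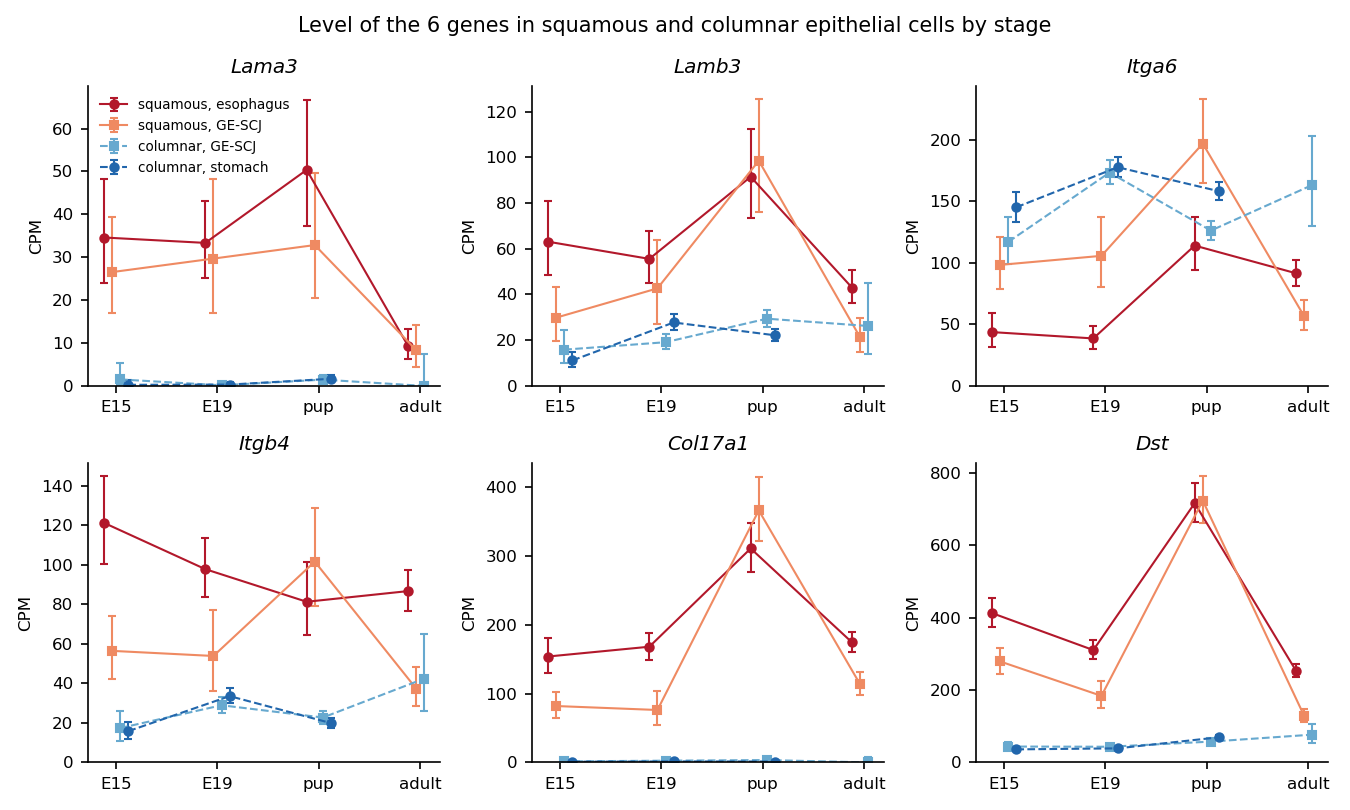
CPM of the 6 genes in squamous cells (esophagus, GE-SCJ) and columnar cells (GE-SCJ, stomach) at E15, E19, in pups and in adults, 1 pooled sample a point; error bars are exact Poisson 95% intervals and adult stomach is not shown. The pup points of Col17a1 (310.5 and 366 CPM) and Dst (716 and 723) stand above all other stages. The columnar points of Itga6, at 117 to 178 CPM, lie above every squamous point of the esophagus. The intervals of the nearest ones overlap, 117 CPM in the GE-SCJ at E15 and 114 in the pup esophagus, which joins both squamous labels.

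Between squamous cells of different regions, Itga6 again stood apart from the other members at E15 and E19. It was higher at the GE-SCJ than in the esophagus at E15 (log2 ratio 1.15, 0.62 to 1.71) and E19 (1.46, 0.92 to 1.99), where only 1.69% and 3.89% of genes were at least 2-fold higher. Itgb4 (-1.09, -1.59 to -0.61) and Lamb3 (-1.05, -1.75 to -0.39) were at least 2-fold lower at the GE-SCJ at E15, as were 2.7% of genes, and Col17a1 at E19 (-1.11, -1.62 to -0.64), as were 3.57%. In pups no member differed 2-fold, and 11% and 14.2% of genes were at least 2-fold higher and lower. Without the second squamous label Lama3 was at -1.32 (-2.10 to -0.58) in pups. In adults Itgb4 was lower at the GE-SCJ (-1.19, -1.62 to -0.78), as were 3.16% of genes. Adult Itga6 was on the same side, at -0.68 (-1.04 to -0.33), with Col17a1 at -0.61, Dst at -0.97 and Lamb3 at -0.98. Lama3 was at -0.10 (-1.12 to 0.85).

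Within basal-keratin-rich cells the regional differences past 2-fold at E15 and in adults had a similar size, while smaller adult ones shrank. At E15 Itga6 was then at 1.38 (0.76 to 2.02), Itgb4 at -1.07 and Lamb3 at -1.09, and in adults Itgb4 was at -1.14 (-1.63 to -0.68). Adult Itga6 was at -0.34 (-0.74 to 0.06), Col17a1 at -0.42, Dst at -0.71 and Lamb3 at -0.76 in these cells. In pups Dst was at -0.31 (-0.49 to -0.14). At E19 the GE-SCJ had only 8 such cells and no value is given. Of the 47 squamous cells of the GE-SCJ at E15, 8 held more UMIs of the columnar than of the squamous markers. With classes set from these markers Itgb4 and Lamb3 were at -0.95 and -0.92 at E15 and Col17a1 at -0.90 at E19, short of 2-fold. Without the second squamous label Col17a1 was at -0.96 at E19.

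From E15 to pups, columnar Lamb3 in both regions and Dst in the stomach were higher, with intervals clear of 0 though short of 2-fold. Lamb3 went from 11.1 to 22.2 CPM in the stomach (log2 ratio 0.96, 0.50 to 1.46) and from 15.9 to 29.4 in the GE-SCJ (0.83, 0.20 to 1.53), and Dst from 36.0 to 69.4 CPM in the stomach (0.94, 0.68 to 1.21). Lama3 was the 1 ratio of 12 past 2-fold, in the stomach, where 8.97% of genes were higher. It rested on 19 UMIs against 1 (1.76, -0.28 to 4.90) and was 0.42 once the cells richest in Lama3, 1% of each group, were left out. In the GE-SCJ none was past 2-fold, against 8.41% of genes higher and 19.3% lower. Itga6 was steady, at 145 and 158 CPM in the stomach and 117 and 126 in the GE-SCJ.

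Over all classes, Col17a1 was nearly a squamous gene: 173 CPM (165 to 181) in squamous cells and at most 7.03 CPM (fibroblasts) in any other class. These levels sum stages in which the classes have unequal shares. Itgb4 was highest in squamous cells at 80.5 CPM. It was followed by the second stromal label (26.1), neural cells (25.6) and columnar cells (24.8), which did not differ beyond their intervals, and by endothelial cells (10.1). In pups neural cells were at 98.5 CPM (64.9 to 143) against 89.3 (75.7 to 105) in squamous cells, and in adults at 234 (7 UMIs in 13 cells) against 70.6. Lama3 was at 23.5 CPM (20.7 to 26.6) in squamous cells, 15.6 (9.68 to 23.9) under the second stromal label and 11.2 (6.86 to 17.3) in endothelial cells, neighbours in this order overlapping, and at most 1.11 CPM in the other classes. In pups endothelial cells were at 51.6 CPM (6 UMIs, 18.9 to 112) against 42.9 (33.7 to 53.8) in squamous cells. Lamb3 was at 50.8, 23.0 and 12.7 CPM in squamous cells, columnar cells and the second stromal label, and at most 3.32 CPM elsewhere.

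Itga6 and Dst were led by other tissues. Itga6 was highest in endothelial cells, at 450 CPM (419 to 482), then in neural cells at 218 (203 to 234). Columnar cells (155) and immune cells (146) overlapped, and squamous cells (84.4) came below both. In pups squamous cells were at 144.9 CPM, columnar cells at 144.8 and immune cells at 74.1. Dst was highest in neural cells, at 711 CPM (684 to 739), followed by squamous cells at 329 (318 to 340) and endothelial cells at 163. Endothelial cells, smooth muscle cells (138) and the second stromal label (128) overlapped, and columnar cells (51.9) and immune cells (55.3) were lowest. In adults squamous Dst, at 213 CPM, was below endothelial cells (565) and smooth muscle cells (439), and overlapped fibroblasts (255).

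The second stromal label covers 139 cells and held 4 mesothelial markers (Upk3b, Wt1, Msln, Lrrn4) at 1841 CPM in sum, against 7.64 in fibroblasts.

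**Figure D5:**
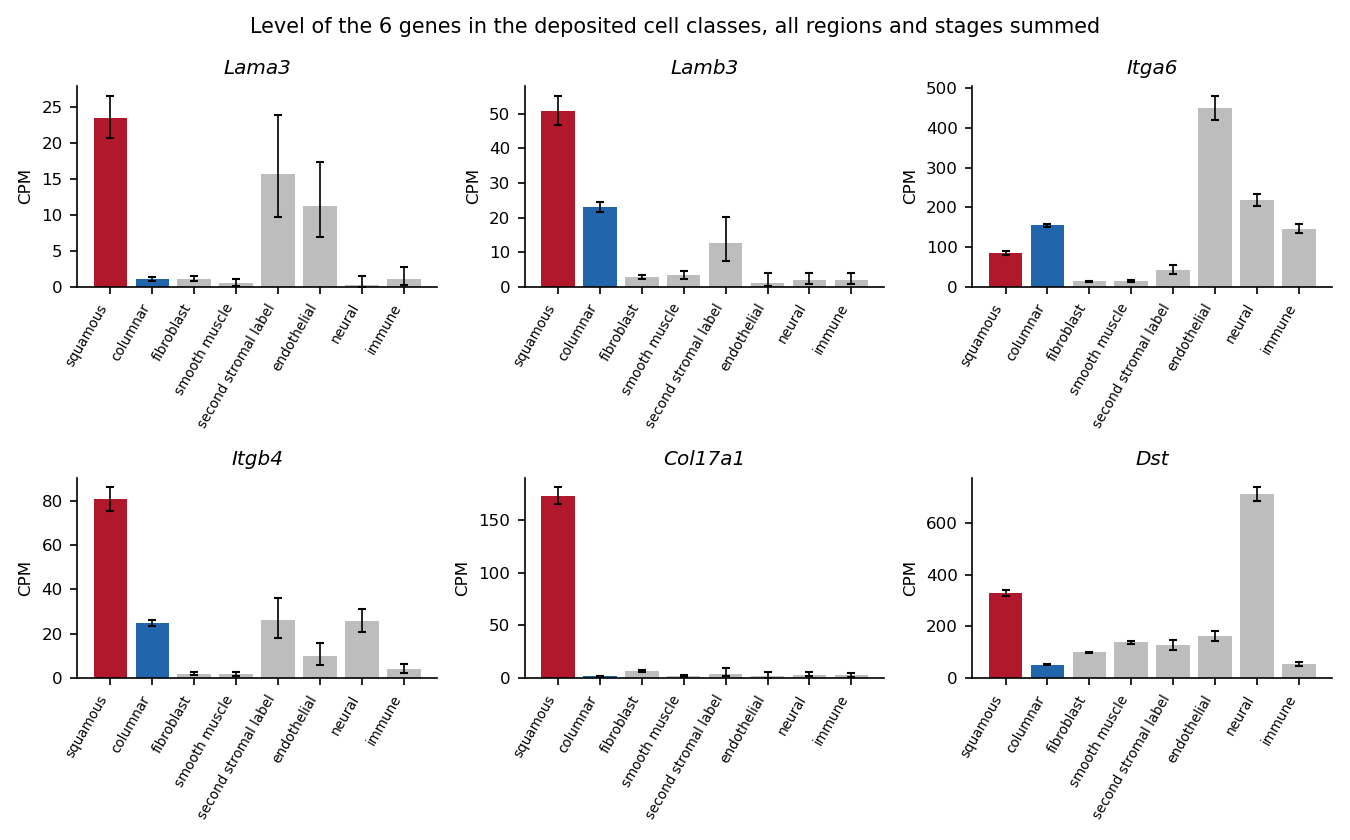
CPM of the 6 genes in the 8 cell classes, with the cells of all regions and stages summed, so that the order can differ within a stage; error bars are exact Poisson 95% intervals, and the squamous bar is red and the columnar bar blue. Over the summed cells, squamous cells lead for Col17a1 (173 CPM), Itgb4, Lama3 and Lamb3, endothelial cells for Itga6 (450 CPM) and neural cells for Dst (711 CPM).

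The profiles of 5 members ran together over the epithelial groups. Over the 15 squamous and columnar groups of at least 20 cells, the Pearson r of log2(CPM + 10) was 0.85 to 0.96 for every pair among Col17a1, Itgb4, Dst, Lama3 and Lamb3. Itga6 had an r of -0.18 to -0.46 with each of them. These groups share 1 library and fall into an upper and a lower cluster by class, so the values describe that contrast and little more. Over all 54 groups and classes, r between Col17a1 and Dst, which was highest in neural cells, was 0.36, and between Col17a1 and Lama3 0.78.

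The 10 genes whose profile over the 54 groups was most like the mean of the members, of 11442 genes compared, were Fzd6, Tgfa, Urah, Krt6a, Trp63, Mir205hg, Krt15, Celsr1, Epha2 and Cyp2f2. Their r was between 0.82 and 0.87. Fzd6 is a Wnt receptor of the planar polarity pathway, as Celsr1 is one of its cadherins, Tgfa is a ligand of the EGF receptor, and Krt15 and Trp63 mark basal squamous cells.

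A list of 24 other hemidesmosome and basement membrane genes was read beside the members. In squamous over columnar cells of the GE-SCJ, 7 of the 24 were at least 2-fold higher at E15, 8 at E19 and 13 in pups, and 2, 2 and 1 at least 2-fold lower. Their median log2 ratio was 0.31, 0.76 and 1.11, against -0.08, -0.13 and -0.06 over all genes tested. Of all genes with at least 100 UMIs, 3.58%, 6.51% and 7.85% were at least 2-fold higher. Of the 24 genes, 11, 18 and 17 reached 100 UMIs, and 2, 4 and 8 of these were at least 2-fold higher. In adults, with 87 squamous and 19 columnar cells, 2 of the 24 were at least 2-fold higher and 11 at least 2-fold lower. The adult median was -0.97, against -0.14 over all genes tested, of which 15.4% were higher and 13.9% lower. Only 3 of the 24 reached 100 UMIs there, and 1 of these was at least 2-fold lower.

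At E15, E19 and in pups, the nearest partners of the members had ratios on the side of squamous cells. Col7a1, the anchoring fibril collagen, had log2 ratios of 3.07, 5.78 and 6.35, with at most 6 UMIs in columnar cells. Plec, which codes for plectin, had 1.20, 0.99 and 1.32, and Cd151, a tetraspanin that binds laminin-receptor integrins, 1.15, 0.89 and 0.61. Col4a5, Col4a1 and Col4a2, chains of the collagen IV network, stood at 2.07, 1.83 and 1.70 at E19, and Bcam, a receptor for laminin alpha-5, at 1.22. Fras1, which codes for a matrix protein of embryonic epithelia, was lower in squamous cells at E15 (-1.02) and E19 (-1.21, -2.68 to -0.06) and higher in pups (1.40).

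From E15 to adult, 18 of the 24 genes were at least 2-fold lower in squamous cells of the esophagus and 18 in those of the GE-SCJ, against 18% and 17.8% of all genes with at least 100 UMIs, with medians of -1.96 and -1.78 against -0.38 and -0.31 over all genes. Lamb3, beside them, differed by -0.57 (-1.01 to -0.11) and -0.50 (-1.26 to 0.28). Plec (-0.57 and -0.76) and Cd151 (-0.65 and -0.55) differed less than 2-fold, as did Col17a1 and Itgb4. Bcam (-2.40 and -2.18) and Col4a5 (-3.00 and -2.12) were among the lowest. Only 13 and 6 of the 24 reached 100 UMIs over both stages, and 11 and 3 of these were at least 2-fold lower. These counts cover all squamous cells, of which a smaller share was basal-keratin-rich in adults than at E15. In basal-keratin-rich over suprabasal-keratin-rich cells of the adult esophagus and GE-SCJ, 13 and 16 of the 24 were at least 2-fold higher. Of all genes, 13.2% and 9.86% were. Only 1 and 0 of the 24 were lower. There 5 and 2 reached 100 UMIs, of which 2 and 0 were higher. The part of this in the lower adult levels was not tested. Among keratins of the basal layer, Krt5 and Krt14 were higher in adults, with Krt14 at 116 CPM at E15 and 642 in adults of the esophagus, while Krt15 was at 4247 and 1578 CPM.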

How the data were processed

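Single-cell suspensions were tagged, pooled and sequenced as 1 10x Genomics 3′ library. The authors aligned and demultiplexed the reads with Cell Ranger 6.1.1, removed cells of low quality and clustered and named the rest. They deposited the count of UMIs per gene and cell, the total count per cell, the percent of mitochondrial UMIs, tags and class labels. The deposited UMI counts were used as such; tags and totals agreed in all 7808 cells, all barcodes were distinct, and no further cells or doublets were removed. Counts of a class, region and stage were summed and expressed as CPM. Log2 ratios had 1 UMI added to each sum, with an exact conditional 95% interval. Shares had exact Clopper-Pearson intervals after thinning to 5000 UMIs (seed 1). Percentages of genes called used genes with at least 100 UMIs over both groups. Counts of members did not require 100 UMIs unless this is stated. Intervals and floors (3 UMIs) cover counting error only. The members, lists and rules (named beyond the members: Plec, Cd151, Col7a1, the 5 of the 24 genes with the largest E19 ratio at 100 UMIs, and the 10 most similar genes) were chosen with earlier results of these data known. The ratio and interval code was tested on simulated data. Python 3.11.15, scipy 1.17.1 and pandas 2.3.3 were used. Some results on genes of these lists are not reported here.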

Additional observations from a re-analysis of the deposited data

Results flagged for a closer look

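The adult over E15 ratio of Itga6 in squamous cells had opposite signs by region. It was 1.04 (log2) in the esophagus and -0.80 in the GE-SCJ, each from 1 pooled sample a stage, and the difference between the regions was not tested. The level was 43.8 CPM at E15 and 91.6 in adults of the esophagus, and 98.4 and 56.7 CPM in the GE-SCJ. Within basal-keratin-rich cells both ratios were above 0, at 2.25 (1.71 to 2.82) and 0.54 (0.04 to 1.03). Basal-keratin-rich cells made up 116 of 225 classed adult cells of the esophagus and 40 of 85 of the GE-SCJ, and the part of this in the opposite signs was not tested.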

How the results depend on the processing

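No paired analysis was possible because each region and stage was 1 pooled sample with no replicate number. Over 9 alternatives, 640 of 714 single-gene ratios stayed inside the counting interval of the reported value, 73 moved outside it and 1, past 2-fold, changed its sign. This was Dst, adult over E15 in the GE-SCJ, with a log2 ratio of 0.067 within basal-keratin-rich cells. Among smaller adult over E15 ratios, 4 also changed sign within these cells with both intervals clear of 0, Itgb4, Dst and Lamb3 in the esophagus (at 0.62, 0.22 and 0.55) and Itga6 in the GE-SCJ (at 0.54). For adult over E15, the count at least 2-fold higher, 1 of 12, was 2 with the mean of each cell's CPM, 0 with a stricter cell filter (1000 UMIs or more, mitochondrial share up to 10%), 0 without adult cells high in H19 and 3 within basal-keratin-rich cells, where the count at least 2-fold lower, 3, was 0; the median ratio, -0.58, was 0.14 with the mean of each cell's CPM and 0.55 within basal-keratin-rich cells. For GE-SCJ over esophageal squamous cells, 4 of 24 at least 2-fold lower were 1 when classes were set from markers. For columnar pup over E15, the 1 ratio past 2-fold was 3 with the mean of each cell's CPM, 2 with that filter, 0 without the 1% highest cells and 0 with marker classes, and the last 2 each gave 1 lower ratio. The median basal over suprabasal ratio, 3.08, was 4.65 with shares of at least 80% against at most 20%. Of the 10 most similar genes, 5 were kept at log2(CPM + 1) and 1 in epithelial groups alone. The percentages of genes at least 2-fold higher in GE-SCJ squamous cells at E15, E19 and in pups were 5.96%, 12.7% and 13.7% at 20 UMIs and 1.58%, 2.09% and 1.95% at 4-fold. The cause of these shifts was not tested. Animals were pooled, so no spread between mice is known; the adult GE-SCJ rests on 19 columnar cells, and adult squamous Lama3 on 30 and 13 UMIs.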

Other observations

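Col17a1 was also read in fibroblasts of pups. It was at 4.65 CPM in fibroblasts of E15, 6.84 at E19 and 28.6 (20.6 to 38.7) in pups, and at 3.59 in adults (1 UMI in 46 cells). The 42 UMIs in pups came from 35 of 311 fibroblasts, with at most 3 in a cell. By region, the pup level was 35.0 CPM in the esophagus, 27.9 in the GE-SCJ and 20.2 in the stomach. The fibroblasts with a Col17a1 UMI held Col1a1 at 6583 CPM and Pdgfra at 813, against 6640 and 701 in those without. Of the squamous genes, the 35 cells held 3 UMIs of Krt5, 18 of Krt13 (105 CPM, against 102 in the other fibroblasts), 3 of Lamb3 (17.6 CPM, against 3.08) and none of Trp63, Itgb4 or Lama3. In pups there were 2.33 UMIs of Col17a1 for each UMI of Krt5 in fibroblasts, 0.338 in squamous cells, 0.259 in columnar cells and 0.278 in smooth muscle cells, and none in 86 immune cells. The source of these UMIs was not tested.

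Outside the epithelium, some members had higher levels at later stages. Itgb4 in neural cells was at 10.8 CPM at E15, 31.3 at E19, 98.5 in pups and 234 (94.2 to 483) in 13 adult cells. That class joins different kinds of cell, which are not shown apart here. Under the second stromal label Itgb4 was at 3.18 (1 UMI), 10.8 and 71.6 CPM at E15, E19 and in pups. Dst in fibroblasts was at 67.6, 110.5, 173 and 255 CPM and in smooth muscle cells at 79.9, 128, 322 and 439 CPM over the 4 stages. The intervals of successive stages in fibroblasts did not overlap. These values sum regions whose shares differ with stage, and no adult cells are of the stomach. Fibroblasts of the esophagus, GE-SCJ and stomach were 347, 350 and 360 at E15. In adults there were 31 of the esophagus and 15 of the GE-SCJ. Lama3 in endothelial cells was at 1.29 CPM at E15, 13.3 at E19 and 51.6 in pups, the last from 6 UMIs in 21 cells, and at 32.3 in adults from 2 UMIs.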
